A study of Mus musculus with 14 samples.

Results

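Granzymes and the surface and granule proteins that go with them are the working equipment of natural killer (NK) cells and cytotoxic T cells. Here 6 such genes were followed in libraries of marrow stem and progenitor cells labelled Dpy30 KO (knockout) or control. The genes were given as a fixed list: Gzma, Gzmb, Gzmc, Klrb1c, Nkg7 and Tcf7. All 6 were found by symbol among 38926 gene entries of the LSK and MyePro libraries and by Ensembl ID among 39179 gene IDs of the LT-HSC libraries. No expression minimum was used to choose them, but earlier results of these data were known when they were chosen.

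The series holds 14 samples, of which the 8 RNA-seq libraries were used. KO donor cells carried Mx1-Cre; Dpy30F/-, with 1 floxed and 1 null allele of Dpy30, and control donor cells carried Mx1-Cre; Dpy30F/+, with 1 floxed and 1 wild-type allele. DPY30 is a core subunit of the SET1 and MLL complexes that methylate lysine 4 of histone H3. Mx1-Cre is driven by an interferon-responsive promoter, and all groups, controls included, received pIpC, a double-stranded RNA mimic that induces interferon, in 4 injections of 7.5 µg/g. Donor marrow (CD45.2+) was transplanted into irradiated CD45.1+ recipients together with C57Bl/6J competitor marrow (CD45.1+), pIpC began 7 weeks later, and cells were sorted from lineage-depleted marrow 2 weeks after the last injection. The labels give no age for the donors or recipients of these chimeras. They call the LT-HSC donor-derived and do not say whether LSK and MyePro cells were sorted free of competitor and recipient cells, which carry Dpy30. LSK cells (lineage-negative, Sca-1-positive and Kit-positive, a fraction of stem cells and early progenitors) and MyePro cells, whose gate the labels do not give, gave 1 KO and 1 control library each, from pools of 2 to 3 mice. Long-term hematopoietic stem cells, or LT-HSC, gave 2 KO and 2 control libraries from transplants 1 and 2, pooled from 7 to 9 mice each and amplified before library preparation.

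Granzymes are serine proteases stored in the lytic granules of cytotoxic lymphocytes. On contact with a target cell the granules are released, perforin opens the target's membrane, and granzymes enter and cleave proteins that lead to its death. Stem and progenitor cells are not known for this program, although mast cells and basophils, which share marrow progenitors with other myeloid cells, can also carry granzyme B.

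The members divide into 3 granzymes, 1 receptor, 1 granule membrane protein and 1 transcription factor. Each position is that of RefSeq on build GRCm38.p6. Gzma (ENSMUSG00000023132; chromosome 13, 113093824 to 113100981) encodes granzyme A, a trypsin-like protease. Gzmb (ENSMUSG00000015437; chromosome 14, 56258836 to 56262334) encodes granzyme B, which cleaves after aspartate and activates caspases. Gzmc (ENSMUSG00000079186; chromosome 14, 56231397 to 56241647) encodes granzyme C, a protease of the same gene cluster. Klrb1c (ENSMUSG00000030325; chromosome 6, 128778485 to 128788641) encodes the NK1.1 antigen, a C-type lectin-like receptor used as an NK cell marker in C57BL/6 mice. Nkg7 (ENSMUSG00000004612; chromosome 7, 43437138 to 43438246) encodes a membrane protein of lytic granules that takes part in their release. Tcf7 (ENSMUSG00000000782; chromosome 11, 52246527 to 52283383) encodes TCF1, a DNA-binding partner of beta-catenin needed for the development of T cells and innate lymphoid cells.

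The start regions of Gzmc, Klrb1c and Gzmb are shown because these genes had the 3 largest KO to control ratios of the members in LSK with a prior count of 2; with a prior count of 0.5 Gzma, at 4.82, stood above Gzmb, at 4.46. The sequences are RefSeq promoter windows of GRCm38.p6, from 250 bases before to 50 after a start site, and capitals mark the letters TGTGGT, the core bound by RUNX factors, on either strand (ACCACA on the other).
Gzmb promoter (chr14:56262285-56262584, minus strand): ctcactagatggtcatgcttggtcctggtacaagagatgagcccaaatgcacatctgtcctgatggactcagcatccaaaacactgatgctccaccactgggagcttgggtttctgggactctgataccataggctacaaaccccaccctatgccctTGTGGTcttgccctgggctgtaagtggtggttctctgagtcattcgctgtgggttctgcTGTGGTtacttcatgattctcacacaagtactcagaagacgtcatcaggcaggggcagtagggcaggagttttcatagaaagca
Gzmc promoter (chr14:56234608-56234907, minus strand): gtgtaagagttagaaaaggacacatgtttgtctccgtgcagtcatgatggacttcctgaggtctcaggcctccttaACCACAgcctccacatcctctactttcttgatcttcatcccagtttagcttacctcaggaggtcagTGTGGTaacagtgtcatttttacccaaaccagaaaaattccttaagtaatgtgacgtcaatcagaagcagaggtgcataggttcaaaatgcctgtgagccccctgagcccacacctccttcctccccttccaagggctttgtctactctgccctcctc
Klrb1c promoter (chr6:128788592-128788891, minus strand): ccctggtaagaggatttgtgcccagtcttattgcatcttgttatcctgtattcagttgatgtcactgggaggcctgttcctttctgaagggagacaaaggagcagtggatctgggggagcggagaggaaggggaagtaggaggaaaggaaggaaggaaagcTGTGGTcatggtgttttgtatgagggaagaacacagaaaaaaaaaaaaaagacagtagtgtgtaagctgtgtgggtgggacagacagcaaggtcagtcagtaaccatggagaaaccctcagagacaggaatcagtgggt
The start site of the window is the gene's outer end for Gzmb, Klrb1c, Gzma and Nkg7, but lies 6990 bases inside the annotated gene for Gzmc, and 369 and 788 bases inside for the 2 windows of Tcf7. The windows of Gzmb and Gzmc held 2 matches each and that of Klrb1c held 1. Gzma and Nkg7 each held 1 match, shown here with the bases around it.
Gzma window (chr13:113101014-113101043, minus strand): gagaagaacaaaACCACAtcctttgcactc
Nkg7 window (chr7:43437043-43437072, plus strand): gggcccacccctACCACAtaggaggagagg
Neither promoter window of Tcf7 held TGTGGT, so 5 of the 6 members had a match, among them all 4 whose window starts at the gene's end, against 16.8% of all 32851 mouse promoter windows of the same length. The letters CTTTGA, the core bound by TCF and LEF factors, were in the window of 0 members, against 16.0% of all windows. The letters ACGTCA, a core bound by CREB and ATF factors, was in the windows of 2 members, Gzmb and Gzmc, against 7.51% of all. GGTGTGA, a T-box core, was in 1 member's window (Nkg7; 3.98% of all), and the GATA letters AGATAA were in 0 (11.2% of all). The motifs were chosen with the sequences in view. All were searched on both strands, ACGTCA and its complement TGACGT overlap in Gzmc, and a match describes letters, not binding.

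The KO genotype was checked first. Dpy30 stood at 41.7 CPM in KO LSK against 78.0 CPM in control LSK, and at 51.6 CPM in KO MyePro against 116 CPM in control MyePro (CPM, counts per 1000000 gene counts after TMM scaling). In LT-HSC it stood at 14.1 and 4.67 CPM in the libraries labelled KO from transplants 1 and 2, against 12.9 and 8.43 CPM in controls 1 and 2, so the library labelled KO from transplant 1 was not lower, and every LT-HSC direction below rests on the labels. Gene counts per library ran from 6130320 (KO LSK) to 20820762 (control MyePro) in the progenitor libraries and from 38060087 to 85499797 in LT-HSC. Kit stood at 386 and 491 CPM in KO and control LSK and Mpo at 2109 and 6546 CPM in KO and control MyePro. LSK and MyePro have no replicate, so their differences are given without p-values. Their 95% intervals are of the plain ratio of counts and cover counting error only.

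In both progenitor populations all 6 genes were at least 2-fold higher in KO than in control. Because the list was chosen with earlier results of these data known, this count and the ranks below are descriptive. The shares over all entries are given as a background and not as a test. The log2 ratios ran from 1.17 (Nkg7) to 7.07 (Gzmc) in LSK and from 1.35 (Nkg7) to 6.76 (Gzmc) in MyePro, with medians of 3.70 and 4.42. Gzmc and Gzma had 0 control counts, so their ratios depend on the prior count: with 0.5 in place of 2, Gzmc stood at 9.06 in LSK and 8.75 in MyePro, Gzma at 4.82 and 7.38, and the medians at 4.64 and 5.00. With Gzmc and Gzma at their lower bounds the medians were 3.39 and 4.40. Over all gene entries with a count, 13.5% of 19051 were at least 2-fold higher in KO LSK and 10% lower, and 21.9% of 19286 were higher in KO MyePro and 9.42% lower. The median over all entries was -0.03 in LSK and 0.03 in MyePro. With library totals in place of TMM, 3511 entries were higher and 1694 lower in KO LSK, against 2575 and 1909, and the 6 genes stayed past 2-fold. Many of those entries hold few counts: above a mean level of 5 CPM, KO LSK was 2-fold or more higher for 4.78% of entries and KO MyePro for 10.7%. Of the members, 5 reached that mean in each population, all but Gzma. Gzmb, Gzmc, Klrb1c and Tcf7 in LSK, and Gzmc, Klrb1c and Tcf7 in MyePro, had control levels under 5 CPM and so reached that mean through the KO library. In bulk RNA, more cells of a type that carries these transcripts and more RNA per cell cannot be told apart.

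**Figure D1:**
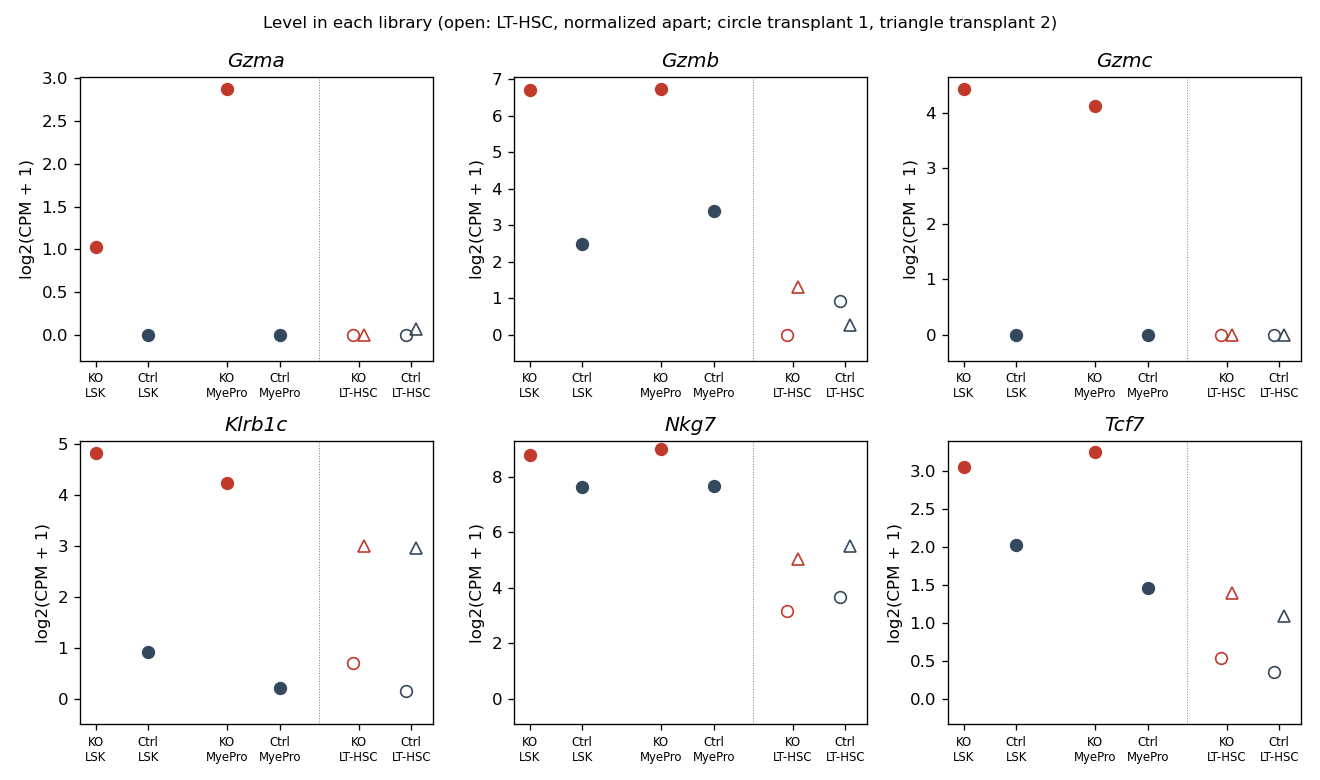
Level of each of the 6 genes in every library, as log2(CPM + 1), with KO left of control. Filled points are the single LSK and MyePro libraries, and open points are LT-HSC libraries, which were normalized apart (circle, transplant 1; triangle, transplant 2). Gzmc is above 0 in the 2 KO progenitor libraries and at 0 in the other 6.

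Gzmc was detected in KO and not in control. It had 137 counts in KO LSK and 0 in control LSK (20.4 and 0 CPM), at least 99.9-fold higher against a floor of 3 counts in the control library. In KO MyePro it had 188 counts, and 0 in control MyePro (16.5 and 0 CPM), at least 107-fold higher. By log2 ratio it ranked 3 of 19051 entries in LSK and 3 of 19286 in MyePro. The control libraries' floors of 3 counts correspond to 0.200 CPM (LSK) and 0.144 CPM (MyePro) before TMM scaling.

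Gzmb was present in control and higher in KO. KO LSK had 691 counts and control LSK 68 (103 and 4.62 CPM), a log2 ratio of 4.43 (interval 4.11 to 4.86). KO MyePro had 1191 counts and control MyePro 184 (104 and 9.43 CPM), a log2 ratio of 3.45 (interval 3.24 to 3.70). KO MyePro and KO LSK stood at nearly equal levels (log2 ratio 0.02, interval -0.12 to 0.16), and control MyePro stood above control LSK (log2 ratio 1.00, interval 0.62 to 1.45).

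Gzma was detected in KO and not in control, and was higher in KO MyePro than in KO LSK. It had 7 counts in KO LSK and 0 in control LSK (1.04 and 0 CPM), at least 5.11-fold higher against the floor. It had 72 counts in KO MyePro and 0 in control MyePro (6.30 and 0 CPM), at least 41.0-fold higher. The log2 ratio of KO MyePro to KO LSK was 2.43 (interval 1.48 to 3.96).

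Klrb1c had 184 counts in KO LSK and 13 in control LSK (27.4 and 0.884 CPM), a log2 ratio of 4.73 (interval 4.14 to 5.89). In MyePro it had 202 counts in KO and 3 in control (17.7 and 0.154 CPM), a log2 ratio of 5.86 computed with a prior count of 2 (interval of the plain ratio 5.28 to 9.14). It ranked 29 of 19051 in LSK and 15 of 19286 in MyePro.

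Nkg7 was present in all 4 progenitor libraries and had the smallest ratio of the 6 genes. KO LSK had 2980 counts and control LSK 2904 (443 and 197 CPM), a log2 ratio of 1.17 (interval 1.09 to 1.24). KO MyePro had 5868 counts and control MyePro 3930 (514 and 201 CPM), a log2 ratio of 1.35 (interval 1.29 to 1.41). The 2 controls stood close together, with a log2 ratio of 0.03 for control MyePro over control LSK (interval -0.04 to 0.10).

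Tcf7 was present in all 4 libraries with fewer than 100 counts in each. KO LSK had 49 counts and control LSK 45 (7.29 and 3.06 CPM), a log2 ratio of 1.21 whose interval of 0.64 to 1.87 reaches below 2-fold. KO MyePro had 97 counts and control MyePro 34 (8.49 and 1.74 CPM), a log2 ratio of 2.19 (interval 1.71 to 2.89).

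**Figure D2:**
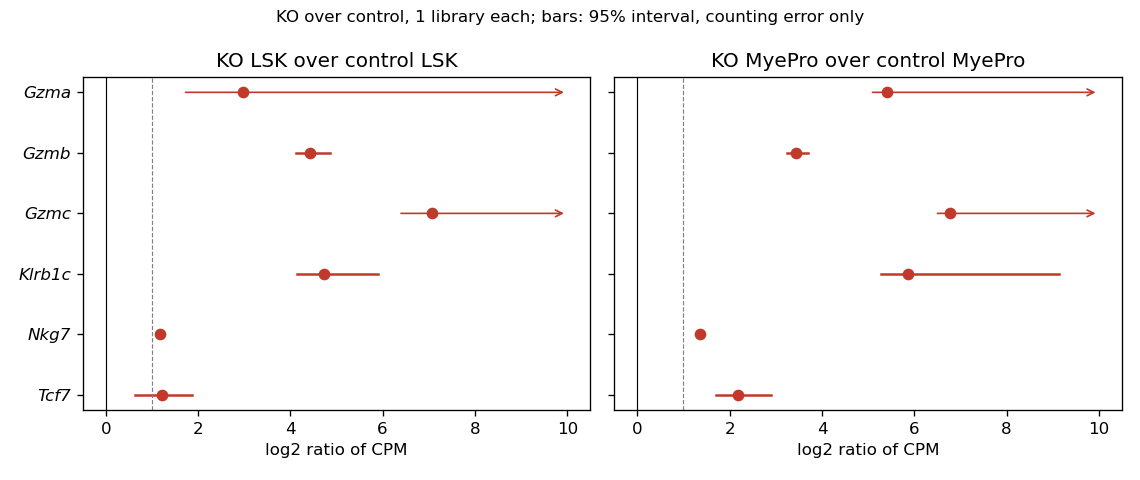
Log2 ratio of KO over control for each gene in LSK (left) and MyePro (right), 1 library per group, with 95% intervals for counting error only. Arrows mark intervals with no upper end because the control had 0 counts, and the dashed line marks 2-fold. All 6 points lie above 2-fold in both panels, and the interval of Tcf7 in LSK crosses it.

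Between the populations the members kept no common order. Of the 4 members with a count in control cells, Gzmb was at least 2-fold higher in control MyePro than in control LSK and Klrb1c at least 2-fold lower (log2 ratio -1.76), where 5.38% and 13.1% of all entries were higher and lower. Between the KO libraries 1 of the 6 members, Gzma, was at least 2-fold higher in MyePro and 0 were lower, where 12.7% and 7.96% of entries were higher and lower. Klrb1c was lower in KO MyePro than in KO LSK with a log2 ratio of -0.63 (interval -0.93 to -0.33), and for Gzmb, Gzmc and Tcf7 the interval between the KO libraries held 0.

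The other granzymes were nearly absent. Of 10 granzyme genes, which include the members Gzma, Gzmb and Gzmc, 6 had a count in LSK and 8 in MyePro. Of these, 4 and 6 were at least 2-fold higher in KO and 0 lower in either, where 13.5% and 21.9% of all entries were higher. Beyond the members, the higher genes were Gzmf in LSK and Gzmf, Gzmk and Gzmn in MyePro. Gzmd, Gzme, Gzmg and Gzmn had 0 to 2 counts in every progenitor library. Gzmf had 3 and 12 counts in KO LSK and KO MyePro and 0 in both controls, and Gzmk had 6 counts in KO MyePro and 0 in the other 3 libraries. Gzmm had more counts in control, with 7 in KO LSK against 20 in control LSK and 13 in KO MyePro against 22 in control MyePro, which after scaling was 1.04 against 1.36 CPM and 1.138 against 1.127 CPM. Granzyme genes of the cluster are alike in sequence, and the treatment of reads shared by several genes is not stated in the labels, so counts of Gzmc, Gzmf and their neighbours could be split between them.

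Gzmb and Gzmc lie 17.2 kb apart in a cluster of granzyme and mast cell protease genes. Of the 12 other protein-coding genes within 200 kb of Gzmc, 9 had a count in MyePro, 6 were at least 2-fold higher in KO and 1, Rnf17, was lower. In LSK the numbers were 8, 5 and 1. Over all entries with a count, 21.9% were higher in KO MyePro and 13.5% in KO LSK. The higher genes were the member Gzmb, Mcpt8, and Mcpt2, Mcpt4, Gzmf and, in MyePro only, Gzmn. The last 4 had at most 12 counts in any progenitor library. Mcpt8, which encodes a basophil protease, stood at 201 CPM in KO LSK against 78.3 CPM in control LSK and at 435 CPM in KO MyePro against 154 CPM in control MyePro. Ctsg, the cathepsin G gene of neutrophil primary granules, stood at 637 against 397 CPM in KO and control LSK and at 1256 against 1119 CPM in KO and control MyePro, log2 ratios of 0.68 and 0.17. The genes between Ctsg and Gzmc, which are Gzme, Gzmd, Gzmg, Gzmn and Gzmf, were at or under 1.05 CPM in all 4 libraries, and Atp12a, on the far side of Gzmb, had 0 counts.

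**Figure D3:**
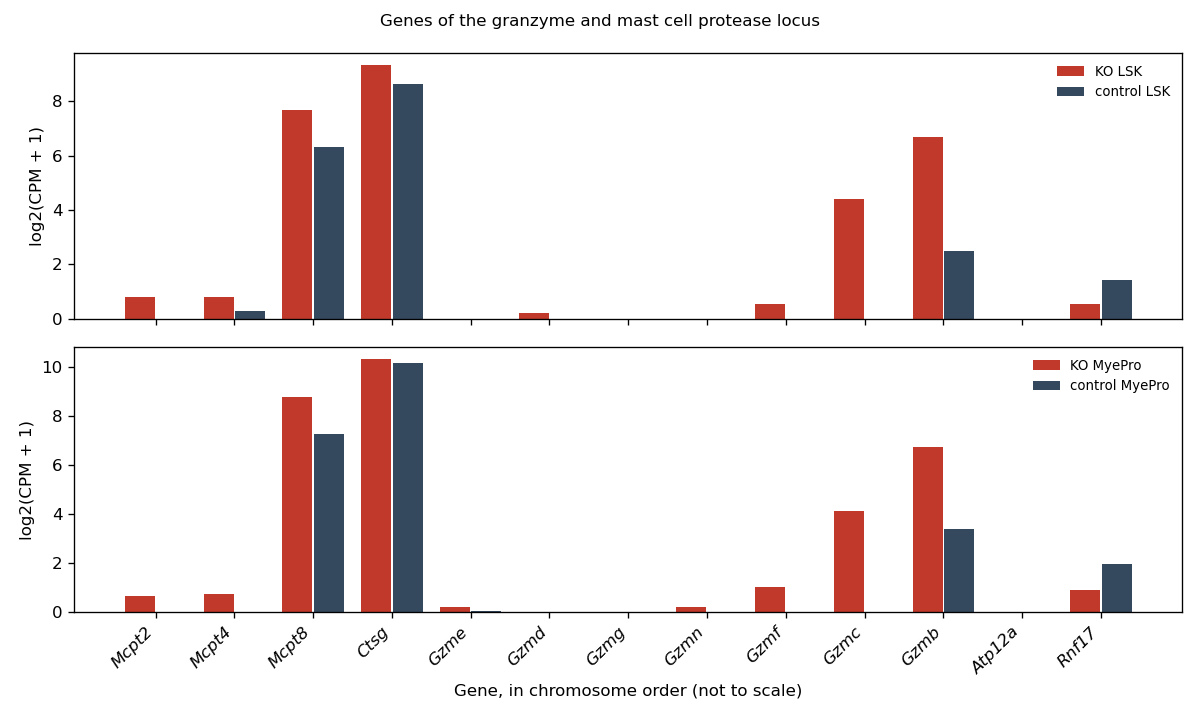
Level as log2(CPM + 1) of the protein-coding genes within 200 kb of Gzmc, in chromosome order and not to scale, in KO (left bars) and control (right bars) LSK and MyePro. Gzmc and Gzmb stand above their controls at one end of the cluster, Mcpt8 and Ctsg are high in both genotypes at the other, and the granzyme genes between them are near 0.

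The surroundings of the other members were measured in the same way. Around Klrb1c 6 of 8 neighbours had a count in LSK, with 2 higher and 1 lower in KO, and the related receptor gene Klrb1b stood at 4.31 CPM in KO LSK against 0.816 CPM in control LSK and at 2.89 CPM in KO MyePro against 0.0512 CPM in control MyePro. Around Nkg7 12 of 17 had a count, with 2 higher and 1 lower in KO LSK and 7 higher and 1 lower in KO MyePro. Around Tcf7 0 of 5 neighbours with a count were past 2-fold in either population. Around Gzma 2 of 6 were higher and 0 lower in KO LSK, and 3 of 7 higher and 1 lower in KO MyePro. Over all entries with a count, 13.5% were higher in KO LSK and 21.9% in KO MyePro.

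The granule machinery list had medians close to 0. Of 14 genes, which include Nkg7, 4 passed 2-fold upward and 1 downward in KO LSK (median log2 ratio 0.15), and of 13 with a count in MyePro 3 were higher and 0 lower (median 0.29). Ctsw, the cathepsin W gene of NK and cytotoxic T cells, stood at 11.6 CPM in KO LSK against 4.35 CPM in control LSK, and at 4.90 CPM in KO MyePro against 0.307 CPM in control MyePro. Stx11, a syntaxin of granule release, stood at 23.5 against 10.2 CPM in KO and control LSK and at 36.1 against 27.8 CPM in KO and control MyePro. Stxbp2, its binding partner, stood at 53.4 against 142 CPM in KO and control LSK and at 87.5 against 126 CPM in KO and control MyePro. Prf1, the perforin gene, named after its values were seen, had 5 counts in KO LSK against 1 in control LSK and 23 in KO MyePro against 3 in control MyePro. Srgn, the proteoglycan that packs granzymes, had log2 ratios of 0.33 and 0.50.

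The NK cell list, which holds Klrb1c, was higher in part. In LSK 12 of 23 genes with a count were past 2-fold on the KO side and 1 on the control side (median log2 ratio 1.43). In MyePro 19 of 25 were higher and 1 lower (median 2.15). Over all entries with a count, 13.5% were higher in KO LSK and 21.9% in KO MyePro, and these shares are the background of every list. In LSK Klrc1, Klre1 and Klra3 passed on 2 counts against 0 in KO and control, and Klrb1a on 3 against 0. Of the genes with a count, 10 in LSK and 13 in MyePro had 0 counts in 1 group. With such genes at their bound, or at 0 where the other group was under the floor, the medians were 0 and 1.77. Without Klrb1c the 26 genes summed to 44.0 CPM in KO LSK against 13.0 CPM in control LSK, and to 45.9 CPM in KO MyePro against 12.1 CPM in control MyePro. In LSK most of that sum came from Klrb1f, another receptor gene of the NK complex (16.7 against 3.19 CPM in KO and control), and the chemokine gene Ccl5 (10.7 against 2.45 CPM). In MyePro Klrb1f was the largest part of the sum and differed little (11.0 against 7.74 CPM in KO and control, log2 ratio 0.50), while Cd226, an activating receptor gene, stood at 5.60 CPM in KO against 0.102 CPM in control and Ccl5 at 7.44 against 0.769 CPM.

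Other NK cell genes had few counts, more of them in KO MyePro than in control MyePro. Eomes, an NK cell transcription factor gene, had 16 counts in KO MyePro and 0 in control MyePro, at least 9.11-fold higher, and 0 in both LSK libraries. Tbx21, a related factor gene, had 8 against 0 counts in KO and control MyePro, and 1 against 5 in KO and control LSK. Il2rb, a cytokine receptor gene, had 42 against 2 counts in KO and control MyePro and 22 against 11 in KO and control LSK. Xcl1, a chemokine gene, had 18 against 0, and Klra7, a Ly49 receptor gene, 16 against 0 in KO and control MyePro, with 5 against 1 and 4 against 0 in KO and control LSK. Ncr1, the NKp46 receptor gene, had 5 against 0 in KO and control MyePro and 1 against 5 in KO and control LSK, and Ifng had 0 in all 4 libraries. These genes, like Prf1 and Cd3e, were named after their values were seen. With the whole list, 5 of the 26 genes were at 0 in KO LSK against 13 in control LSK, and 4 in KO MyePro against 13 in control MyePro. The part of NK cells in the members' values was not tested.

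T cell genes divided. In LSK 6 of 18 genes with a count passed 2-fold upward and 5 downward in KO (median 0.33), with a sum of 69.6 CPM in KO against 71.4 CPM in control. In MyePro 8 of 18 were higher and 1 lower (median 0.93), with 61.5 against 21.4 CPM in KO and control. Most of both MyePro sums came from Lat, given below. With genes at 0 in 1 group set to their bound the medians were 0.03 and 0.90. Lck, a T cell kinase gene, stood at 3.87 against 11.7 CPM in KO and control LSK, and Lat, an adaptor gene also used by platelets and mast cells, at 40.4 against 12.2 CPM in KO and control MyePro and at 37.8 against 34.5 CPM in KO and control LSK. Cd28, a costimulatory receptor gene, stood at 7.62 against 2.72 CPM in KO and control MyePro and at 2.23 against 0.748 CPM in KO and control LSK. Cd3e had 1 and 0 counts in KO and control LSK and 1 and 1 in KO and control MyePro.

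Among the 16 genes of the TCF/LEF and Wnt list, Tcf7 was 1 of 2 at least 2-fold higher in KO in each population, with 1 lower in LSK and 2 in MyePro (medians -0.26 of 15 and 0.07 of 16 with a count). The other gene past 2-fold on the higher side was Nkd1, at or under 0.875 CPM. On the lower side were Rnf43 in both populations, at or under 4.82 CPM, and Tle1, a corepressor gene, in MyePro, with 7.53 against 16.4 CPM in KO and control MyePro and 7.74 against 14.0 CPM in KO and control LSK. Lef1, the close relative of Tcf7, had 4 counts in each LSK library and 7 and 5 in KO and control MyePro. Ctnnb1, the beta-catenin gene, stood at 352 against 500 CPM in KO and control LSK and at 291 against 415 CPM in KO and control MyePro. Axin2, a common readout gene of Wnt signalling, stood at 1.34 against 2.65 CPM and 1.84 against 1.90 CPM in the same order.

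Innate lymphoid cell genes were higher for 6 of 13 with a count in KO LSK and for 8 of 11 in KO MyePro, with 0 lower in either (medians 0.59 and 1.52, or 0.33 and 1.52 with genes at 0 in 1 group at their bound). Tox, a nuclear factor of lymphoid development, stood at 72.5 CPM in KO LSK against 7.48 CPM in control LSK and at 14.9 CPM in KO MyePro against 0.410 CPM in control MyePro. Id2, an inhibitor of E proteins needed by NK cells and innate lymphoid cells, stood at 73.2 against 18.6 CPM in KO and control LSK and at 91.0 against 7.02 CPM in KO and control MyePro. Zbtb16, the PLZF gene, stood at 9.54 against 3.23 CPM in KO and control MyePro and at 5.95 against 4.21 CPM in KO and control LSK. Il5 and Il13, effector cytokine genes, had 0 to 2 counts in every progenitor library.

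Mast cell and basophil genes were on both sides. In LSK 9 of 15 with a count passed 2-fold upward and 4 downward in KO (median 1.36), and in MyePro 7 of 14 were higher and 2 lower (median 0.99). The list summed to 1024 CPM in KO LSK against 655 CPM in control LSK and to 1699 CPM in KO MyePro against 855 CPM in control MyePro. Fcer1a, the IgE receptor alpha chain gene, stood at 92.1 against 13.5 CPM in KO and control LSK and at 353 against 23.5 CPM in KO and control MyePro. Cpa3, the mast cell carboxypeptidase gene, stood at 374 against 96.8 CPM in KO and control LSK, with a log2 ratio of 0.70 in MyePro. Hdc, the histidine decarboxylase gene, stood at 143 against 41.5 CPM in KO and control LSK and at 389 against 122 CPM in KO and control MyePro, and Mitf, a transcription factor gene, at 18.1 against 7.38 CPM in KO and control MyePro. Prss34, a basophil protease gene, went the other way with 6.84 against 108 CPM in KO and control LSK and 78.7 against 176 CPM in KO and control MyePro. Ms4a2 (3.42 against 11.3 CPM in KO and control), Cma1 (3 against 25 counts) and Tpsb2 were also past 2-fold downward in LSK. Gata2 was lower there by less than 2-fold, at 169 against 292 CPM in KO and control LSK. Genes of connective tissue mast cells were low or absent, with Tpsb2 at 0 counts in both KO libraries and 10 and 1 in control LSK and MyePro, and Mrgprb2 at 0 in all 4. Of 14 macrophage and dendritic cell genes with a count, 6 passed 2-fold upward and 3 downward in KO LSK, and 8 and 3 in KO MyePro (medians 0.64 and 1.53). Their summed level was lower in KO LSK, at 440 CPM against 1046 CPM in control LSK, and higher in KO MyePro, at 583 CPM against 334 CPM in control MyePro. Of the neutrophil genes 5 of 11 passed upward and 3 downward in KO LSK, and 6 and 1 of 10 in KO MyePro, with sums of 317 CPM in KO LSK against 104 CPM in control LSK and 770 CPM in KO MyePro against 58.8 CPM in control MyePro. Erythroid genes summed to 765 CPM in KO LSK against 1684 CPM in control LSK and to 868 CPM in KO MyePro against 5610 CPM in control MyePro, with 7 and 6 of 12 past 2-fold downward and 4 and 4 upward. B and plasma cell genes summed to 57.1 against 176 CPM in KO and control LSK and to 22.4 against 134 CPM in KO and control MyePro. The part of these cells in the members' values was not tested.

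**Figure D4:**
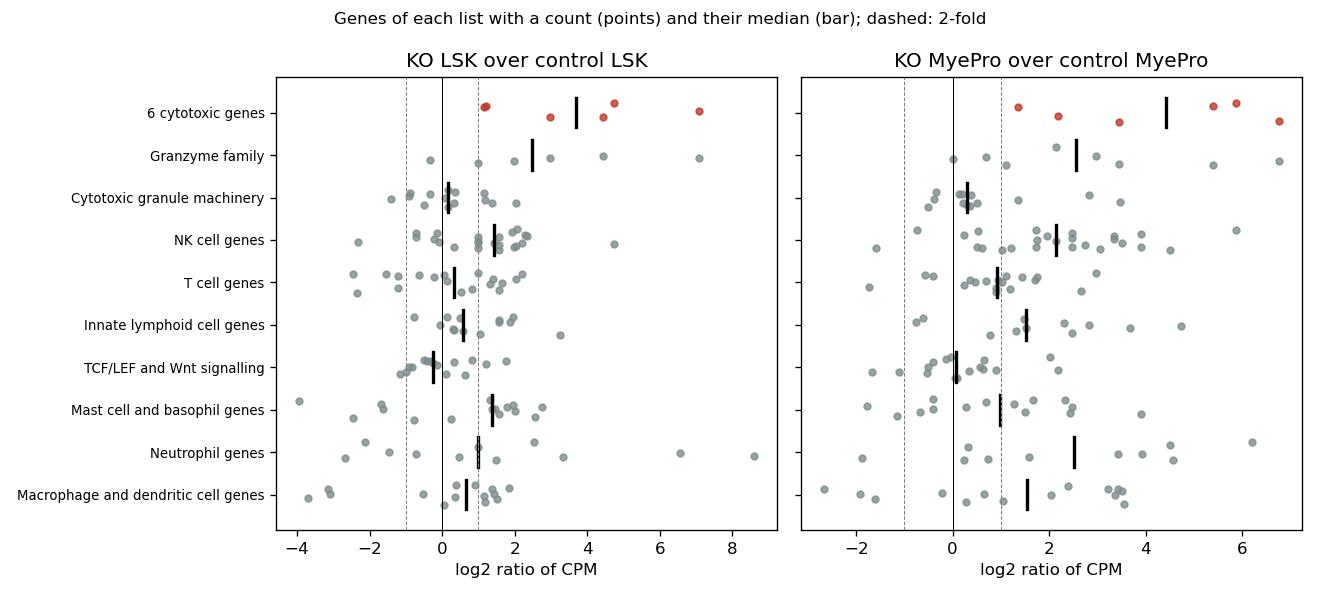
Log2 ratio of KO over control for every gene with a count in each list (points, 1 gene each) and the list's median (bar), in LSK (left) and MyePro (right), with dashed lines at 2-fold. The 6 cytotoxic genes lie to the right of 2-fold in both panels, the granule machinery centres near 0, and T cell genes spread to both sides in LSK.

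The genes whose pattern over the 4 progenitor libraries was most like each member's were found among 9444 genes with at least 10 CPM in 1 library, by the root mean square difference of log2(CPM + 1) after centring each gene. For Gzmb the nearest was Scin, an actin-severing protein gene, at a difference of 0.21, with 525 and 18.6 CPM in KO and control LSK and 411 and 36.7 CPM in KO and control MyePro, followed by Mrgpra2b and Mrgpra2a. For both Gzmc and Klrb1c the nearest was Zfp711, a zinc finger protein gene, at 0.18 and 0.26, with 20.7 and 0.272 CPM in KO and control LSK and 15.7 and 0.256 CPM in KO and control MyePro. Gzmc and Klrb1c were each other's second nearest gene, at 0.31. The nearest genes of Gzma were Cdc42ep5, Ifi204 and Rhoj, those of Nkg7 were Sccpdh, Fam214b and Nedd9, and those of Tcf7 were Slc22a15, Gstk1 and Tcp11l2. With 4 libraries, the likeness rests on 4 values a gene.

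In LT-HSC 4 of the 6 genes were tested between KO and control, and 0 of them passed. The comparison used edgeR's quasi-likelihood test over 12844 genes, of which 2 passed an adjusted p of 0.05 (0.0156%), both lower in KO. At an unadjusted p under 0.05, 130 genes were higher and 164 lower, none of them a member. With the transplant number as a block 4 genes passed, 0 of them members. Members that passed the expression filter of 1 CPM in 2 libraries, taken before TMM scaling, were Gzmb, Klrb1c, Nkg7 and Tcf7. After TMM scaling Gzmb reached 1 CPM only in KO 2. For all 4 the KO and control libraries overlapped. Most genes overlapped: of the 12844, 1770 (13.8%) had both KO libraries above both controls and 1782 had both below. The libraries labelled KO also differed from control in sex-linked genes: Xist and 4 Y-linked genes had unadjusted p-values under 0.05, and 2 of them, Kdm5d and Eif2s3y, were the 2 genes that passed. The part of sex in the members' values was not tested.

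Gzmc had 0 counts in all 4 LT-HSC libraries, where 3 counts correspond to between 0.0351 and 0.0788 CPM before TMM scaling. Gzma had 2 counts in control 2 and 0 in the other 3. Gzmb had 0 and 102 counts in KO 1 and KO 2 (0 and 1.497 CPM) and 42 and 9 in controls 1 and 2 (0.907 and 0.208 CPM). The edgeR log2 fold change was 0.43 ± 1.83 (SE, 2 libraries a group, n = 2; quasi-likelihood adjusted p = 0.999). KO was the lower in transplant 1 and the higher in transplant 2, and the value was -1.03 with the transplant block and -0.25 without control 2. Levels are on a scale set apart from that of LSK and MyePro.

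Klrb1c had 31 and 477 counts in KO 1 and KO 2 (0.625 and 7.00 CPM) and 5 and 294 in controls 1 and 2 (0.108 and 6.79 CPM). The library from transplant 2 was the higher in both genotypes. The edgeR log2 fold change was 0.15 ± 1.61 (SE, 2 libraries a group, n = 2; quasi-likelihood adjusted p = 0.999). It was 1.08 with the transplant block, 0.76 with ERCC totals as library sizes and -0.82 without control 1. Nkg7 had 399 and 2147 counts in KO 1 and KO 2 (8.04 and 31.5 CPM) and 548 and 1916 in controls 1 and 2 (11.8 and 44.3 CPM), again higher in transplant 2. The edgeR log2 fold change was -0.50 ± 0.763 (SE, 2 libraries a group, n = 2; quasi-likelihood adjusted p = 0.999). It was -0.52 with the transplant block, -0.03 with ERCC totals, 0.76 without control 2 and 0.17 without KO 1. Tcf7 had 22 and 111 counts in KO 1 and KO 2 (0.444 and 1.63 CPM) and 13 and 49 in controls 1 and 2 (0.281 and 1.132 CPM). The edgeR log2 fold change was 0.56 ± 1.15 (SE, 2 libraries a group, n = 2, quasi-likelihood adjusted p = 0.999). It was 0.59 with the transplant block and -0.12 without control 1, a fit whose only control is from transplant 2.

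Transplant 2 stood above transplant 1 for 3 of the 4 genes in both genotypes. The ratio of transplant 2 to transplant 1 was 11.2 in KO and 62.9 in control for Klrb1c, 3.92 and 3.74 for Nkg7, and 3.67 and 4.03 for Tcf7. These ratios depend on the scaling. The TMM factor was 0.580 for KO 1 and 1.26 for KO 2, against 1.20 and 1.14 for controls 1 and 2. With library totals in place of TMM the KO ratios would be larger, so the likeness of the genotypes for Nkg7 and Tcf7 rests on TMM. For these 3 genes the lower library of transplant 2 was at least 2-fold above the higher library of transplant 1, as it was for 3.19% of the genes tested. The NK cell list without Klrb1c summed to 12.5 and 16.3 CPM in KO 1 and KO 2. In controls 1 and 2 it summed to 4.27 and 52.1 CPM. In the same libraries 11, 8, 16 and 5 of 26 genes were at 0 counts. With TMM scaling that sum was much higher in transplant 2 in control and little different in KO. T cell genes summed to 28.8 and 27.5 CPM in KO 1 and KO 2 and to 29.2 and 45.8 CPM in controls 1 and 2. The part of these cells in the transplant values was not tested.

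**Figure D5:**
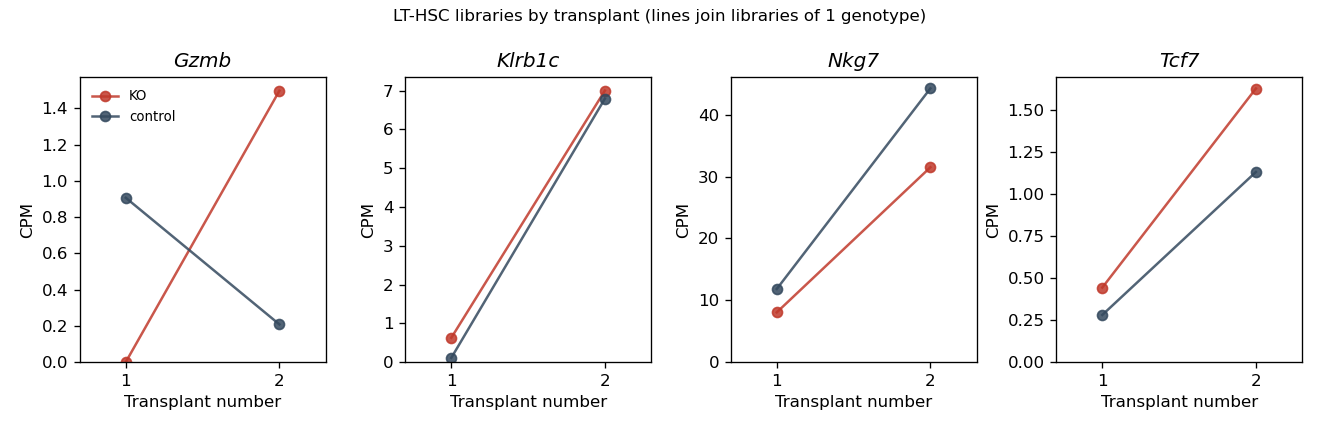
CPM of the 4 genes that passed the LT-HSC expression filter, by transplant number, with 1 KO and 1 control library at each. Lines join the libraries of 1 genotype. Klrb1c, Nkg7 and Tcf7 are higher in transplant 2 in both genotypes, and Gzmb is higher in transplant 2 in KO and in transplant 1 in control.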

How the data were processed

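Raw counts per gene, as deposited by the authors in 1 file per library, were used for 8 RNA-seq libraries; the ChIP-seq samples were not analysed here. Per the submitters' processing notes the tools of the series included CASAVA 1.8.4, TopHat2, Picard 1.126 and HTSeq 0.6.0 with build mm10, and neither their roles nor annotation and strandedness are stated (not given in the sources used here). LT-HSC IDs were named through a gene table (37607 of 39179 matched, 96.0%). Entries that name no gene, ERCC spike-ins (92) and an unexplained entry, DPY30-SPKIG, were kept out of library sizes. Reads without a feature made up 2.40% to 6.25% of the LSK and MyePro files and 16.7% to 26.0% of the LT-HSC files.

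LSK and MyePro counts were TMM-scaled together with edgeR 4.0.16 in R 4.3.3. Log2 ratios used a prior count of 2, and 95% intervals are exact conditional (Clopper-Pearson) intervals of the plain count ratio. LT-HSC libraries were tested with edgeR's quasi-likelihood test, two-sided, with TMM, no block and Benjamini-Hochberg adjustment over all genes. Genes needed at least 1 CPM in 2 libraries before TMM scaling. The fit was tested on simulated counts. The labels give KO and control libraries of 1 number the same transplant, which pairs the samples; after centring on each group's mean, KO 1 and control 1 correlated at 0.285 over genes. Each library is a pool of mice.

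The members and gene lists were chosen with earlier results of these data known. Named were the 6 members, Dpy30, up to 4 members per list past 2-fold with at least 5 CPM (else the 2 highest), with counts and sums only for lists of erythroid, B, neutrophil, macrophage and dendritic cells, the 3 genes of most alike pattern and neighbours within 200 kb; others named were chosen after their values were seen. The alternatives were other scalings, prior counts, filters, folds and tools, thinning, the transplant block and leaving out each LT-HSC library.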

Additional observations from a re-analysis of the deposited data

Results flagged for a closer look

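The sign of the Nkg7 difference was not the same in all populations. KO was above control in LSK (log2 ratio 1.17) and in MyePro (1.35), and below control in both LT-HSC transplants (log2 ratios of -0.55 in transplant 1 and -0.49 in transplant 2, with 0.1 CPM added to each level). In LT-HSC the fitted log2 fold change was -0.50 ± 0.763 (SE, edgeR quasi-likelihood adjusted p = 0.999, n = 2 per group). It was -0.52 with the transplant block and -0.03 with ERCC totals. Leaving out control 2 gave 0.76 and leaving out KO 1 gave 0.17. The value depends on these choices, and leaving out a library leaves the transplants unequally shared between the genotypes. The difference between the populations was not tested, since LSK and MyePro have 1 library per group and were counted and scaled apart from LT-HSC.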

How the results depend on the processing

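In LSK and MyePro the 6 genes kept a positive log2 ratio with library totals, RLE size factors, a prior count of 0.5 and counts thinned to the shallower library. Library totals moved the LSK median of genes with at least 5 CPM to 0.09, against -0.06 with TMM. The entries at least 2-fold higher in KO LSK numbered 492 with a mean of at least 5 CPM and 4449 at 1.5-fold, against 2575, and those in KO MyePro 1098 with the 5 CPM mean, against 4231; these follow from fewer entries or a lower fold. In LT-HSC, genes past the threshold numbered 4 with the transplant number as a replicate block, 4 with library totals, 4 without a filter, 1 with ERCC totals, 14 with DESeq2 and 0 without mitochondrial genes, against 2, and 0 to 5 with 1 library left out (0 without either control, 5 without KO 2); the cause was not tested. The count of members past it was 0 in each of these. Directions reversed for Gzmb with the replicate block (-1.03) and without control 2 (-0.25), for Klrb1c (-0.82) and Tcf7 (-0.12) without control 1, and for Nkg7 without control 2 (0.76) and without KO 1 (0.17). Over the libraries left out, the log2 fold change ran from -0.25 to 1.42 for Gzmb, -0.82 to 1.02 for Klrb1c, -1.80 to 0.76 for Nkg7 and -0.12 to 1.21 for Tcf7, where the gene still passed the filter. With 1 library left in a group, that library is assumed to vary like the other group, and the transplants are unequally shared between the genotypes. Depth limits Gzma in LSK, which rests on 7 counts.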

Other observations

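Between the LT-HSC transplants the other lists were mixed. In both genotypes transplant 2 was higher for 7 and lower for 2 of 18 mast cell and basophil genes. It was higher for 7 and lower for 1 of 14 innate lymphoid genes. Of 26 NK cell genes without Klrb1c it was higher for 10 and lower for 0. Several other lists leaned the same way, with 6 higher and 0 lower of 7 myeloid progenitor granule genes. Neutrophil genes had 7 and 2 of 12, and T cell genes 8 and 2 of 19. LSK and HSC genes (2 and 5 of 12) and erythroid genes (4 and 5 of 12) did not. The remaining genes of each list went both ways or were at 0 in a library pair. The share over all genes was not counted. The genes named next were chosen after their values were seen. Cpa3, the mast cell carboxypeptidase gene, had 34 and 3070 counts in KO 1 and KO 2 and 121 and 2436 in controls 1 and 2. Id2, the E protein inhibitor gene, had 8 and 419 counts in KO 1 and KO 2 and 9 and 197 in controls 1 and 2. Mcpt8, the basophil protease gene next to the granzymes, had 0 and 198 counts in KO 1 and KO 2 and 49 and 224 in controls 1 and 2. Zbtb16, the PLZF gene, was lower in transplant 2, with 435 and 82 counts in KO 1 and KO 2 and 240 and 70 in controls 1 and 2. Il4, a cytokine gene, had 81 and 6 counts in KO 1 and KO 2 and 38 and 13 in controls 1 and 2. Prf1, the perforin gene, had 30 and 9 counts in KO 1 and KO 2 and 1 and 0 in controls 1 and 2. The control counts are too few to give a transplant direction. In CPM its KO libraries were both above both controls, and Prf1 was under the expression filter and not tested. Ncr1, the NKp46 gene, had 119 and 63 counts in KO 1 and KO 2 and 0 and 26 in controls 1 and 2. Both KO libraries stood above both controls in CPM, as for 13.8% of genes tested. The unadjusted p was 0.187 by edgeR's quasi-likelihood test (adjusted p = 0.999). Klrk1, Klrc2, Klre1 and Eomes of the NK cell list went the other way, with both KO libraries below both controls. Klrc2 had 2 and 3 counts in KO 1 and KO 2 and 5 and 502 in controls 1 and 2. Of the 7 genes of that list tested, Klrb1c included, 3 had a positive and 4 a negative log2 fold change.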
